A study of Mus musculus with 27 samples.

Results

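The genes described here make cholesterol, move it within the cell and export it: 29 genes were chosen by name and role, from textbook knowledge of the pathway, and 28 of them have an identifier among the 37991 genes of the files. The choice was made with earlier results of these data known. Hmgcs1 was not analysed here. The 28 genes fall into 18 synthesis genes (7 for the mevalonate steps and 11 for the sterol steps), 4 regulators, 3 genes of transport within the cell and 3 export genes. Of the export genes, Abca1 and Abcg1 encode exporters and Nr1h3 a receptor that induces them. They were followed in osteoblasts, the bone-forming cells, cultured from the skull vault (calvaria) of neonatal C57BL/6J-Col3.6 CFP mice aged 5 to 9 days. In these mice a cyan fluorescent protein is driven by the Col3.6 collagen promoter, and cells carrying it were sorted after 4 days of growth and then kept in differentiation medium with ascorbic acid and β-glycerol phosphate. RNA was sequenced on days 2, 4, 6, 8, 10, 12, 14, 16 and 18 of differentiation, and every day received the same medium, so that the days are the only groups and there is no untreated control.

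Each day has 3 profiles, which carry 1 barcode read in 3 lanes. Over genes with whole-number counts the 3 profiles of a day differed by no more than sampling noise (chi-square per degree of freedom 0.999 to 1.02), so they were summed and counted as 1 sample. Over all genes, with those whose reads RSEM divides among genes, the value was 1.21 to 1.45. The 9 days are thus 9 samples with no replicate at any day. The SD of a day's 3 profiles therefore holds the error of sequencing and of estimating the counts, and no difference between cultures, and a p-value measures the scatter of the 9 days about a fitted curve. Totals ranged from 22470195 estimated counts on day 10 to 62009157 on day 12, and day 8 was the next smallest at 29775703. Levels are given as TPM, a transcript abundance corrected for gene length, scaled so that the upper quartile of expressed genes is the same in every profile. In bulk RNA, a smaller number of cells of a type and less RNA per cell cannot be told apart.

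Cells make cholesterol from acetyl-CoA through mevalonate, isoprenoids, squalene and lanosterol. The transcription factor SREBP-2, the product of Srebf2, drives most genes of this route. Scap escorts it from the endoplasmic reticulum when sterols are scarce, and the Insig proteins hold Scap back when sterols are plentiful. In the opposite direction, oxysterols activate the liver X receptors, among them LXRα (Nr1h3), which induce the cholesterol exporters Abca1 and Abcg1. Cholesterol taken up by endocytosis leaves the lysosome through Npc2 and Npc1.

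SREBP-2 acts on promoters together with NF-Y, a factor that binds the CCAAT box. The stretches shown are the 180 bases before the RefSeq start site (GRCm38.p6, 5′ to 3′ on the strand of the gene), with CCAAT and its reverse complement ATTGG in capitals. The first 4 belong to the synthesis genes with the largest fitted falls that have an entry in the promoter table, and the last 2 to the export genes that have one. The boxes are present in these 4 synthesis genes and absent from the 2 export genes shown, which does not tie the box to a direction of change. Coordinates are chr13:8885426-8885605 on the plus strand for Idi1 and, on the minus strand, chr5:4104698-4104877 for Cyp51, chr1:169969206-169969385 for Hsd17b7, chr8:64733579-64733758 for Sc4mol (Msmo1 in RefSeq), chr4:53159896-53160075 for Abca1 and chr2:91195117-91195296 for Nr1h3.
Idi1: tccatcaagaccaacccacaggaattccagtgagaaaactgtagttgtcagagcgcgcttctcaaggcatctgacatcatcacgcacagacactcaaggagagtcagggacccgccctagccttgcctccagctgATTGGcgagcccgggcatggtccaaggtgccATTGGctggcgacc
Cyp51: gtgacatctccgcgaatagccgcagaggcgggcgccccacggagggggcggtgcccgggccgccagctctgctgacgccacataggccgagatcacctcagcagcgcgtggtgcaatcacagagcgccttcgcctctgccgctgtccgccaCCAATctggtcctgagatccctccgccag
Hsd17b7: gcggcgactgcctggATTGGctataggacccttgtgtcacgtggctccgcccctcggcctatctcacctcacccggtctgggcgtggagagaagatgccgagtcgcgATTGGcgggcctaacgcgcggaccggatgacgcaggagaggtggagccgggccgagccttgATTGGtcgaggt
Sc4mol: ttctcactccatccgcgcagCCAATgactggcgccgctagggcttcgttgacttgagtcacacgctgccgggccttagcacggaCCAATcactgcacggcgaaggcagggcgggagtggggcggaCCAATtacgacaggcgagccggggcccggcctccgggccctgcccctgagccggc
Abca1: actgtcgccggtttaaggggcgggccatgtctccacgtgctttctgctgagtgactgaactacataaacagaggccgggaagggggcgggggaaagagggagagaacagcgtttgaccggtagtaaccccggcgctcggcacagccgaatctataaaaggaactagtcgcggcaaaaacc
Nr1h3: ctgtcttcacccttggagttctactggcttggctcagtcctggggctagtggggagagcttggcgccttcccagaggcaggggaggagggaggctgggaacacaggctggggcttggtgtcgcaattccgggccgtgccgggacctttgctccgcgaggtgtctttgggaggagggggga

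Of the 28 measured genes, 22 have a window in the table of promoters, each running from 250 bases before to 50 after the start. Fdps, Fdft1, Sqle, Stard4, Npc1 and Abcg1 have none. CCAAT, searched on both strands, was present in 18 of the 22 genes (81.8%), against 41.1% of all 27025 genes of the table and 42.9% of those tested here. Among the synthesis genes 14 of 15 held it (93.3%), 9 of them more than once, and Acat2 was the exception. Among the export genes it was in 0 of 2, too few to set against these shares. Idi1 had 2 boxes, Cyp51 had 1, and Hsd17b7 and Sc4mol had 3 each. Ggps1, Tm7sf2, Nsdhl, Ebp and Dhcr7, which did not pass the test of a fall given with the counts, held it too. So did the transport gene Npc2, which rose, with 2 boxes.

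**Figure D1:**
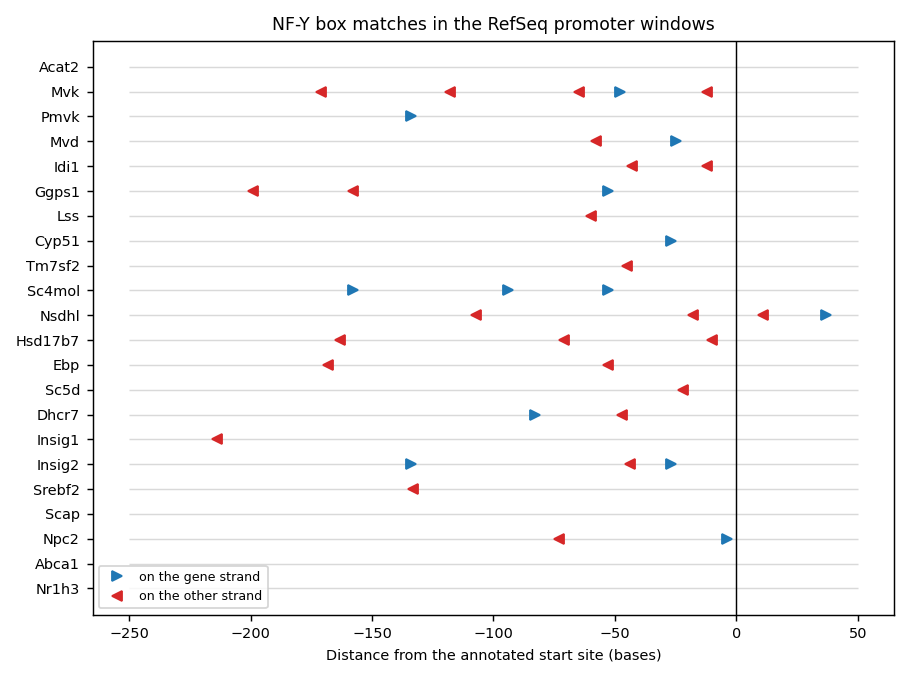
Positions of the CCAAT box on either strand, in bases from the annotated start site, in the promoter windows of the 22 genes (1 row per gene, grey line for the window, arrowheads for the strand of the box). Of 38 boxes, 24 lay within 100 bases before the start and 2 lay after it; Acat2, Scap, Abca1 and Nr1h3 had none.

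The sterol regulatory element was searched as TCACNCCAC on both strands. An exact match was found in 0 of the 22 genes, against 1.44% of all genes in the table. Hmgcs1, which is not among the 22, has a window with 1 exact match. With 1 mismatch, a search added after the exact one had been seen, 10 of 22 genes held a match (45.5%), against 26.7% of all genes. Among the sequences shown, Cyp51, Sc4mol, Hsd17b7 and the export gene Nr1h3 held one, and Idi1 and Abca1 did not. For the liver X receptor, a pair of AGGTCA sites 4 bases apart with up to 3 mismatches was found in 6 of 22 genes (27.3%), against 24.5% of all genes, and Abca1 was 1 of the 6. A match is a match of letters only, and a missing match says only that these letters are not in this window.

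Most synthesis genes moved down over the 9 days, and the 3 export genes moved up. In a straight line of log counts on day, 12 of 18 synthesis genes fell from day 2 to day 18 and 0 rose, while 3 of 3 export genes rose. Over all 15659 genes tested, 54.3% passed the same test, 26.1% falling and 28.3% rising (edgeR quasi-likelihood test, adjusted p under 0.05 after Benjamini-Hochberg correction over all genes). No synthesis gene rose at an unadjusted p under 0.05 either, and the count of rises was also 0 with DESeq2 and with limma on TPM. Over those 16 days the fitted log2 change had a median of -1.27 over the synthesis genes and 0.05 over all genes. Among the export genes it was 1.04 for Abca1, 3.21 for the receptor gene Nr1h3 and 3.59 for Abcg1. Nr1h3 and Abcg1 had low counts. In all 28 genes, 14 fell, 4 rose and 10 did not pass. A curve (natural spline with 3 degrees of freedom), which also finds peaks and dips, passed in 24 of the 28 genes and in 57.5% of the 16256 genes it tested.

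**Figure D2:**
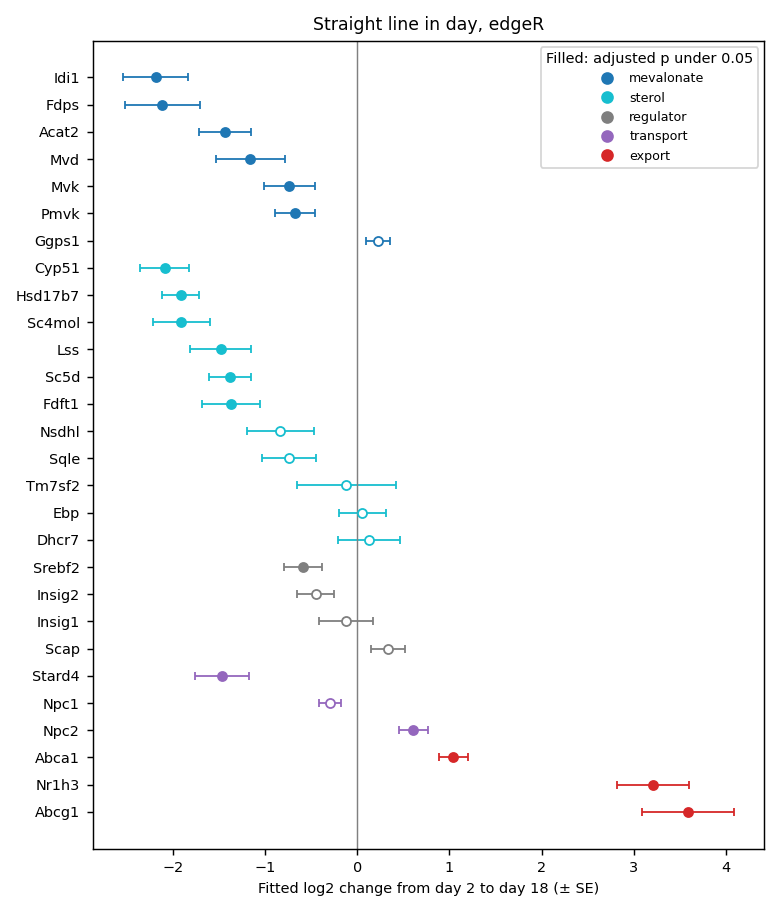
Fitted log2 change from day 2 to day 18 for the 28 genes, with bars of 1 SE, coloured by role; filled circles passed the test at an adjusted p under 0.05. Idi1 (-2.19), Fdps (-2.11) and Cyp51 (-2.09) lie farthest left, and Nr1h3 (3.21) and Abcg1 (3.59) farthest right.

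Of the 7 mevalonate genes measured, 6 fell: Acat2, Mvk, Pmvk, Mvd, Idi1 and Fdps. Idi1, the isomerase that makes dimethylallyl diphosphate, had 36.5, 36.2, 36.8 and 44.7 TPM on days 2, 4, 6 and 8, and then 19.3, 14.9, 12.3, 15.6 and 11.9 TPM on days 10 to 18. The first 4 days all lay above the last 5, and day 10 held 43.2% of the level of day 8. Its fitted log2 change was -2.19 (SE 0.35, adjusted p = 0.000557). The line is thus 4.55-fold lower at its day 18 end than at its day 2 end. The level itself on day 18 was 0.325 of that on day 2, a smaller drop than that of the line. Fdps, which joins isoprenoids into farnesyl diphosphate (NCBIM37 chromosome 3, 88897514 to 88905881, minus strand), stood at 56.3, 57.0, 75.2 and 72.9 TPM on days 2 to 8 and at 35.2, 26.6, 19.6, 20.7 and 23.1 TPM on days 10 to 18. It was thus highest on day 6 and lowest on day 14, with no overlap between the first 4 days and the last 5. Its fitted log2 change was -2.11 (SE 0.41, adjusted p = 0.00152).

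Acat2, whose product condenses acetyl-CoA at the entry of the route, fell by 1.43 on the log2 scale (SE 0.29, adjusted p = 0.00185), with its highest level on day 6 (36.5 TPM) and its lowest on day 18 (13.2 TPM). Mvd, the decarboxylase that ends the mevalonate steps, fell by 1.16 (SE 0.37, adjusted p = 0.0229), and its adjusted p passed without any single day except day 18. The kinases Mvk and Pmvk, which phosphorylate mevalonate in turn, fell least. Pmvk fell by 0.68 (SE 0.22, adjusted p = 0.0238). Mvk fell by 0.74 (SE 0.28, adjusted p = 0.0452), a call that held in only 2 of the 9 fits that left out 1 day, those without day 2 or day 8. In all 6 genes that fell, days 2 to 8 lay above days 10 to 18.

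Ggps1, which leads from farnesyl to geranylgeranyl diphosphate and so away from sterols, was the exception among the mevalonate genes. It had 51.6, 55.3, 52.3, 47.5, 46.5, 64.4, 64.0, 68.9 and 63.6 TPM on the 9 days. Its levels on days 12 to 18 were above those of every earlier day. The fitted log2 change was 0.23 (SE 0.13, adjusted p = 0.160) and the spline missed the threshold as well (adjusted p = 0.0624).

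Of the 11 sterol genes, 6 fell: Fdft1, Lss, Cyp51, Sc4mol, Hsd17b7 and Sc5d. Cyp51, the lanosterol demethylase and the most abundant of the synthesis genes (NCBIM37 chromosome 5, 4081145 to 4104746, minus strand), had 101, 113, 116 and 107 TPM on days 2 to 8 and 59.3, 57.1, 51.3, 36.1 and 34.4 TPM on days 10 to 18. Every early day stood above every late day, and the SD over the 3 profiles of a day was 1.19 to 5.96 TPM. Its fitted log2 change was -2.09 (SE 0.27, adjusted p = 0.000155). Hsd17b7, which reduces the 3-keto group during demethylation, had 39.8, 43.1, 40.2 and 37.0 TPM on days 2 to 8 and 18.4, 20.3, 22.5, 18.0 and 15.7 TPM on days 10 to 18. Its levels formed a high and a low plateau, with day 10 at 49.8% of day 8. It had the smallest adjusted p of the 28 genes (fitted log2 change -1.92, SE 0.20, adjusted p = 6.26e-05).

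Sc4mol, the methyl oxidase that acts after Cyp51, had 44.6, 52.6, 56.1 and 57.3 TPM on days 2 to 8 and then 29.7, 24.8, 22.1, 20.2 and 18.7 TPM on days 10 to 18. After day 8 each level was below the one before, and the fitted log2 change was -1.91 (SE 0.31, adjusted p = 0.00057). Lss, which folds squalene epoxide into lanosterol, fell by 1.48 (SE 0.33, adjusted p = 0.00352). Sc5d, the desaturase of a late step, fell by 1.38 (SE 0.23, adjusted p = 0.000588). Fdft1, the squalene synthase that commits farnesyl diphosphate to sterols, fell by 1.37 (SE 0.31, adjusted p = 0.00401), with 56.0 TPM at its highest, on day 6, and 20.8 TPM at its lowest, on day 18.

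The other 5 sterol genes did not pass the test of the line, and 4 of them passed the spline. Sqle, the squalene epoxidase, was highest on day 8 at 53.4 TPM and lowest on day 18 at 27.7 TPM (fitted log2 change -0.74, adjusted p = 0.0528 for the line and 7.38e-05 for the spline). Nsdhl, a dehydrogenase of the demethylation complex, had 31.6 TPM on day 2, reached 61.8 TPM by day 8, and was at 28.4 to 33.3 TPM from day 10 on (line 0.0757, spline 0.000242, adjusted p). Dhcr7, the reductase of the last step, had 13.3, 16.2, 29.8, 29.7, 18.8, 23.0, 18.3, 20.3 and 20.2 TPM on the 9 days. It peaked on days 6 and 8, and the later days lay between day 4 and the peak (fitted log2 change 0.13, adjusted p = 0.771 for the line and 0.00107 for the spline). Tm7sf2, a sterol reductase, was lowest on day 4 (4.32 TPM), highest on day 8 (11.3 TPM) and low again on day 18 (4.94 TPM) (spline adjusted p = 0.0087). Ebp, a sterol isomerase, had 7.87 to 13.9 TPM with no order by day and passed neither test (adjusted p = 0.870 and 0.571).

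**Figure D3:**
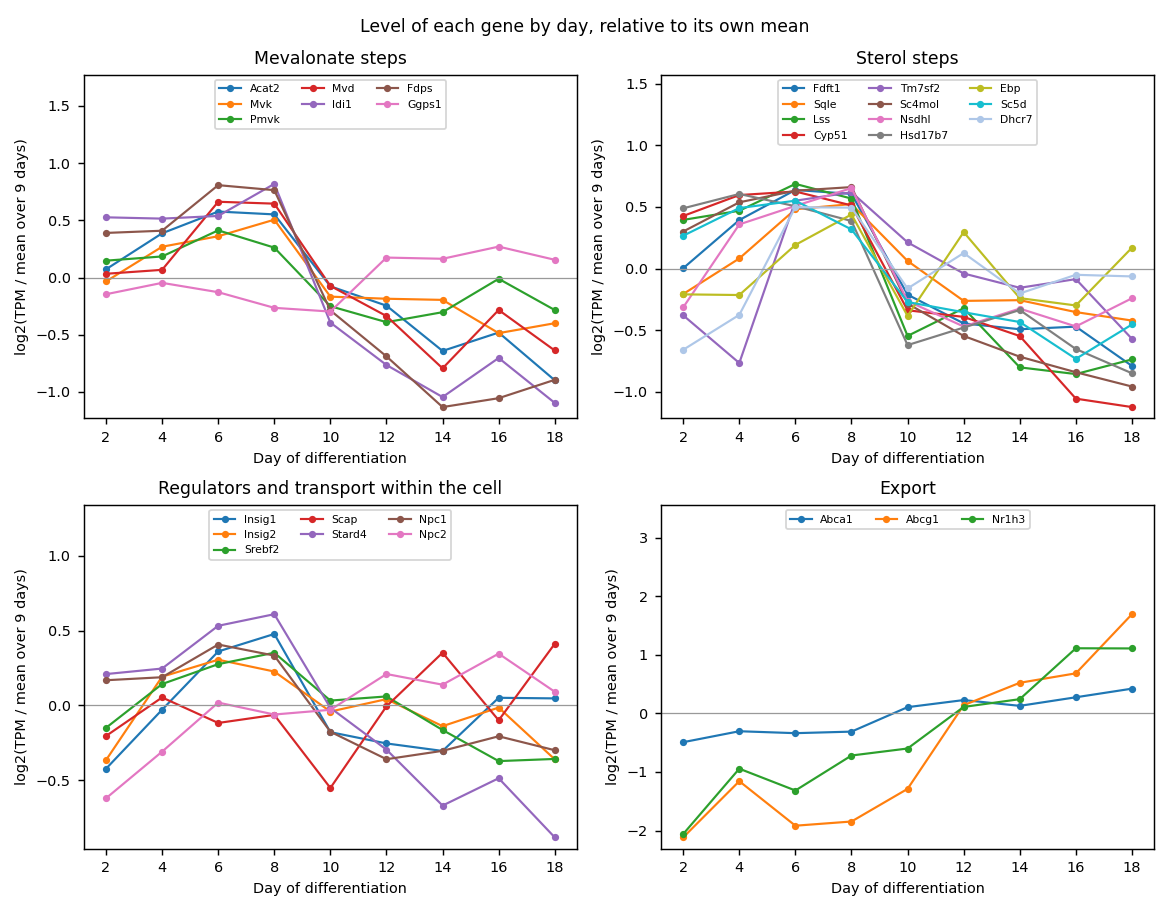
Level of each gene by day as the log2 ratio of its TPM to its own mean over the 9 days, in 4 panels by role, with 1 line per gene. Most synthesis genes run above their mean up to day 8 and below it from day 10, while the 3 export genes climb.

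The synthesis genes did not decline evenly. Their summed level was 584, 668, 757 and 748 TPM on days 2, 4, 6 and 8 and 445, 429, 395, 381 and 364 TPM on days 10 to 18. It was therefore highest on day 6, and the largest drop between neighbouring days came between days 8 and 10. CPM between neighbouring days are counts scaled to the library total corrected by its upper-quartile factor. By this measure 17 of 18 synthesis genes were lower on day 10 than on day 8, with Ggps1 the exception. The median log2 ratio of the step was -0.64. The same step had a median of 0.02 over all genes, of which 47.8% were lower. A drop of more than 0.5 on the log2 scale was seen in 13 of the 18 genes and in 14.5% of all genes. Between days 10 and 12 the median was -0.35, with 15 of 18 lower, and from day 12 on the medians were -0.08, -0.04 and -0.04. Before day 8 the medians were 0.12, 0.16 and 0.02.

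**Figure D4:**
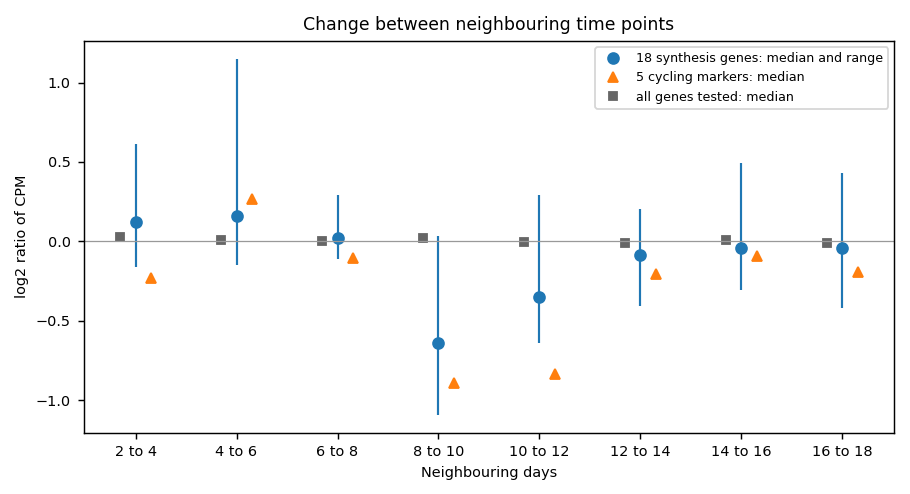
Log2 ratio of CPM between neighbouring days: median and range over the 18 synthesis genes (blue), median over 5 cycling-cell markers (orange) and median over all genes tested (grey). The step from day 8 to day 10 has the lowest medians, -0.64 for synthesis and -0.89 for the cycling markers, beside 0.02 for all genes.

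The split at day 8 was chosen after the values were seen, so it is a description with no test. By that split, 12 of 18 synthesis genes had all of days 2 to 8 above all of days 10 to 18, as did 16.3% of all genes. The highest day was day 6 or 8 in 16 of the 18, as in 16.5% of all genes. Days 8 and 10 are also the 2 shallowest libraries. Without days 10 and 12, a fit added after the data were seen, 11 synthesis genes fell and 0 rose, and 4 of the other genes rose. In that fit 8088 of all 15374 genes tested passed in either direction. In the first 6 time points alone (days 2 to 12), 3 of 18 synthesis genes fell (Cyp51, Hsd17b7 and Sc5d), against 20.3% of 15518 genes falling and 23.1% rising. That fit has 6 samples.

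Markers of other cells and states moved over the same days, and their part in these results was not tested. All 5 cycling-cell markers (Mki67, Top2a, Cdk1, Ccnb1 and Bub1) fell, with a summed level of 269 to 321 TPM on days 2 to 8 and 67.6 to 148 TPM on days 10 to 18. Over the 9 days the 12 synthesis genes that fell correlated with these markers at a median r of 0.95 (60 pairs) and with each other at 0.93 (66 pairs). Over all 18 synthesis genes the pairs ran from -0.79 to 0.98, with a median of 0.81 (153 pairs). The 12 genes were picked because they fell and all 5 cycling-cell markers fell too, so high values among them follow largely from that choice. All these values describe 9 libraries that all pairs share. Of the 7 monocyte and macrophage markers 6 rose, from a summed 24.1 to 68.1 TPM on days 2 to 8 to 190 to 2014 TPM on days 10 to 18, mostly Lyz2. All 5 adipocyte markers rose, from a summed 3.21 to 7.44 TPM to 19.8 to 407 TPM. Cfd was at 0 counts on days 4 and 10. Of 3 endothelial markers tested, 2 rose and 1 fell. Of 10 osteoblast markers 7 rose, 0 fell, and Sp7, Alpl and Spp1 did not pass (fitted log2 change -1.23, 2.22 and -1.17). Sp7 had 32.3 TPM on day 2, 2.77 TPM on day 8 and 10.6 TPM on day 18. Spp1 had 1012 TPM on day 6 and 285 TPM on day 10. Col1a1 was at 1526 TPM or more on every day, while the osteocalcin gene Bglap, which marks mature osteoblasts, was at 0.22 to 1.24 TPM on days 2 to 8 and at 208 TPM on day 18.

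Of the 4 regulators 1 fell, Srebf2, and 0 rose, beside 26.1% of all genes falling and 28.3% rising. Srebf2 had 24.5, 30.03, 32.9, 34.7, 27.8, 28.4, 24.3, 21.0 and 21.2 TPM on the 9 days. It was highest on day 8 and lowest on days 16 and 18, and the early and late days overlapped. Its fitted log2 change was -0.59 (SE 0.20, adjusted p = 0.0300), a call that was lost without day 4, 6, 14, 16 or 18. In TPM it was -0.46 and did not pass (limma, adjusted p = 0.0858). Insig1, itself a known SREBP target, had 34.4 TPM on day 2 and 64.3 TPM at its highest, on day 8, was at 40.8, 38.7 and 37.4 TPM on days 10 to 14 and stood at 47.8 and 47.7 TPM on days 16 and 18. The line missed this peak (fitted log2 change -0.13, adjusted p = 0.741), whereas the spline passed (adjusted p = 0.0014). Insig2 ranged from 21.2 to 33.7 TPM (line 0.0816, spline 0.0431, adjusted p). Scap ranged from 22.0 to 42.8 TPM and passed neither test (adjusted p = 0.140 and 0.357), with an SD over the profiles of a day of up to 12.2 TPM.

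The 3 transport genes went different ways. Stard4, a carrier of cholesterol in the cytosol and a known SREBP target, had 13.3, 13.7, 16.7 and 17.6 TPM on days 2 to 8 and 11.4, 9.40, 7.25, 8.23 and 6.26 TPM on days 10 to 18. Its early days all lay above its late days, and it fell by 1.47 on the log2 scale (SE 0.30, adjusted p = 0.00193). Npc2, the soluble cholesterol carrier of the lysosome and the most abundant of the 28 genes, had 72.4, 89.8, 113, 107, 109, 129, 122, 141 and 119 TPM on the 9 days. It was lowest on day 2 and highest on day 16, and rose by a fitted log2 change of 0.61 (SE 0.15, adjusted p = 0.00649). Npc1, its membrane partner, had 29.5 to 34.8 TPM on days 2 to 8 and 20.5 to 23.3 TPM on days 10 to 18. In counts its log2 change was -0.29 (SE 0.12, adjusted p = 0.0572), while in TPM it was -0.68 and passed (limma, adjusted p = 0.0145).

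The 3 export genes all rose. Abca1, a transporter that exports cholesterol and phospholipid (NCBIM37 chromosome 4, 53043659 to 53172767, minus strand), had 24.2, 27.5, 26.9 and 27.4 TPM on days 2 to 8 and 36.6, 39.8, 37.2, 41.2 and 45.6 TPM on days 10 to 18. Every late day was above every early day, and its log2 change was 1.04 (SE 0.16, adjusted p = 0.000396). Nr1h3, which encodes LXRα, had 0.68, 1.48, 1.14, 1.73, 1.88, 3.07, 3.37, 6.15 and 6.14 TPM on the 9 days, from 17 counts on day 2 to 274 on day 16. Its early and late days did not overlap either, a pattern that 20.5% of all genes share in this direction. Days 8 and 10 were within counting error of each other, with 95% Wilson intervals of 0.93 to 1.75 and 1.38 to 2.53 CPM. These CPM are scaled to the library total without the upper-quartile factor. Its log2 change was 3.21 (SE 0.40, adjusted p = 0.00013) in counts and 2.45 on the log2(TPM + 0.5) scale (limma, adjusted p = 0.000104).

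Abcg1, which exports cholesterol to high-density lipoprotein (NCBIM37 chromosome 17, 31194643 to 31252722, plus strand), was the least abundant of the 28 genes. It had 0.19, 0.37, 0.22, 0.23, 0.34, 0.92, 1.195, 1.34 and 2.69 TPM, so that day 4 was above day 10 and the increase began on day 12. Over the first 5 time points it had 16 to 35 counts a day, then 110, 111, 136 and 241. In CPM of the library total, the 95% Wilson intervals, which cover counting error only, were 0.47 to 1.21 (day 10), 1.47 to 2.14 (day 12) and 4.78 to 6.15 (day 18). Its log2 change was 3.59 (SE 0.50, adjusted p = 0.000234) in counts and 2.06 on the log2(TPM + 0.5) scale, which understates the change of low genes (limma, adjusted p = 0.00077). In days 2 to 12 alone, Npc2, Abca1 and Nr1h3 rose and Abcg1 did not pass (adjusted p = 0.0769). Macrophage and adipocyte markers, which rose over the same days as given with the synthesis genes, are markers of cells known to express the export genes, and their part in the rise was not tested.

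**Figure D5:**
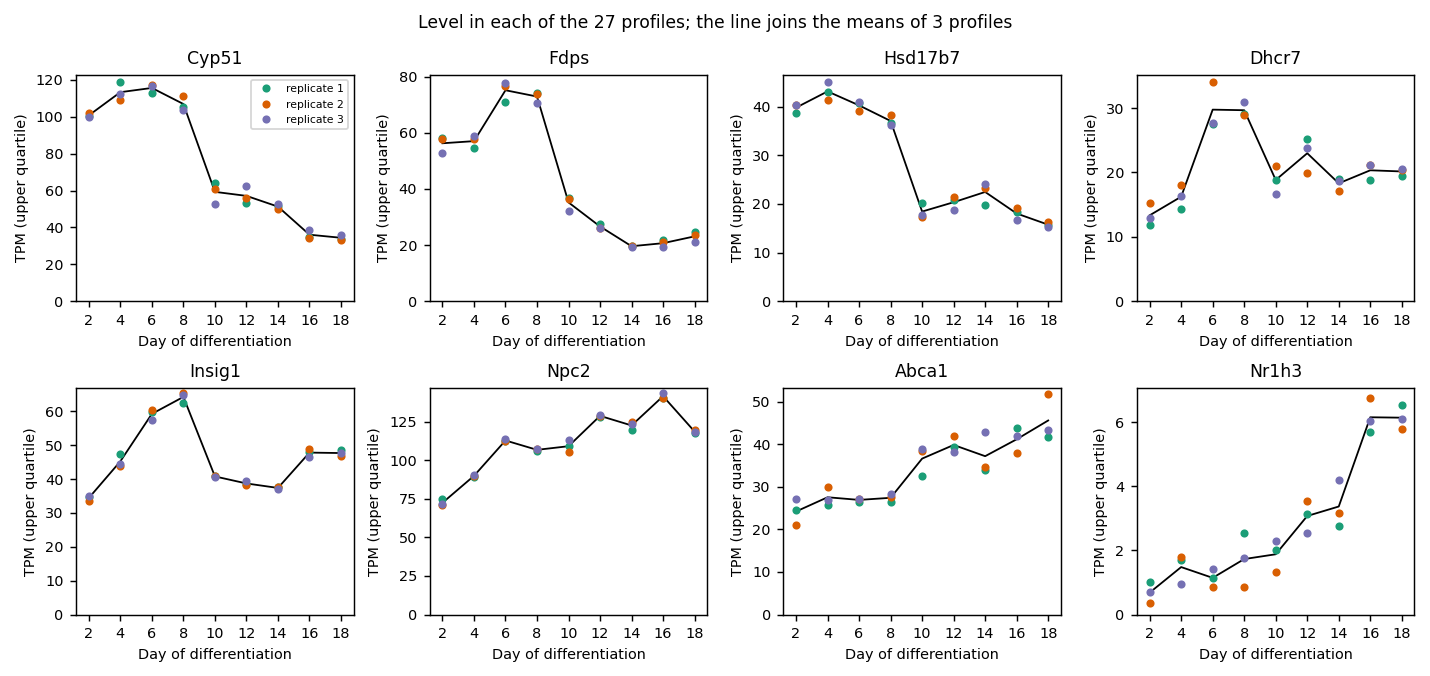
TPM of 8 genes in each of the 27 profiles by day, with 1 colour per replicate number; the line joins the mean of the 3 profiles of each day. The drop between days 8 and 10 in Cyp51, Fdps and Hsd17b7 is larger than the spread of the 3 profiles of a day, while those of Nr1h3 overlap on these 2 days.

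By mean level over the 9 days the 28 genes spanned 111 TPM for Npc2 to 0.83 TPM for Abcg1. After Npc2 came Cyp51 (74.96 TPM), Ggps1 (57.1 TPM), Insig1 (46.2 TPM) and Fdps (43.0 TPM), and the last before Abcg1 were Ebp (10.3 TPM), Tm7sf2 (7.34 TPM) and Nr1h3 (2.85 TPM). The SD over days was 20.6 TPM for Npc2, 33.7 TPM for Cyp51 and 8.24 TPM for Ggps1. Neighbours in this order differed by more than the larger of their SDs over days in 4 places: Npc2 and Cyp51, Ggps1 and Insig1, Ebp and Tm7sf2, and Tm7sf2 and Nr1h3. All 18 synthesis genes had at least 1 TPM on every day.

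Other genes of the sterol pathway were taken from a separate list of 27. Of the 26 tested, 7 rose, 9 fell and 10 did not pass, with a median fitted log2 change of -0.03, beside 28.3% of all genes rising and 26.1% falling. The largest rises were Cyp7b1 (2.66, SE 0.76, adjusted p = 0.0131) and Cyp27a1 (2.58, SE 0.66, adjusted p = 0.00736), both hydroxylases of oxysterol and bile acid metabolism. Cyp27a1 stayed at or below 1.11 TPM. The largest falls were Lbr, a sterol reductase that is also the lamin B receptor (-1.59, SE 0.22, adjusted p = 0.000227), and Pdss1, which makes the side chain of coenzyme Q (-1.48, SE 0.34, adjusted p = 0.00436).

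Some values rest on reads that the authors' counting shared between genes. Counts were not whole numbers, a sign of shared reads, in 24 to 27 of 27 profiles for Acat2, Idi1, Fdft1, Scap and Npc1, and in 16 to 17 for Tm7sf2 and Sc4mol. By gene position Fdft1 and Ctsb, Ggps1 and Arid4b, and Mvd and Gm20388 overlap on opposite strands, and so do Lss, Scap and Npc1 with other genes. Whether their exons overlap was not checked. Where they do, reads cannot be told apart without a stated strand. Fdps, Tm7sf2, Srebf2, Abcg1 and Nr1h3 overlap other genes on the same strand by position. Counts were not whole numbers in 0 of 27 profiles for Mvd, Srebf2, Abcg1 and Nr1h3, 3 for Ggps1, 4 for Lss and 7 for Fdps.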

How the data were processed

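RNA from 9 days of differentiation was amplified with NuGEN Ovation, made into Illumina TruSeq libraries and sequenced on an Illumina HiSeq. The authors aligned reads to the NCBIM37 transcriptome with Bowtie 0.12.9 and quantified genes with RSEM 1.2.8, as the submitters' processing notes give it. Each deposited file thus holds the authors' estimated counts, TPM and FPKM per gene, of which FPKM was not used. The counting was not stated to use strand.

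Symbols and positions came from GENCODE vM1, which names 37205 of the 37991 identifiers. Estimated counts of the 3 profiles of a day were summed, rounded and tested with edgeR 4.0.16 (R 4.3.3; quasi-likelihood test, factors from the upper quartile, low genes dropped by filterByExpr at its minimum count of 10, a straight line in day or a natural spline with 3 degrees of freedom, Benjamini-Hochberg over all genes, threshold 0.05). A fitted change is that of the line over the 16 days from day 2 to day 18. Deposited TPM values were divided by the 75th percentile of the profile's nonzero values, then multiplied by the average percentile. The test of the line was checked on simulated data. It called 59.3% of 108 genes with a log2 change of 1 and 82.7% of 81 genes with a change of 2. Of its 135 calls, 2.96% were genes without change. The simulated spread was that about the spline, which was smaller than that about the line (common dispersion 0.0196 and 0.0581). The numbers 1 to 3 did not pair profiles across days (mean correlation of deviations 0.00604 for the same number and -0.003016 for different ones). DESeq2 1.42.0, limma 3.58.1 on log2(TPM + 0.5) and other settings were alternatives.

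All 29 genes were to be named or counted, with the 2 largest rises and falls of the other pathway list. These genes, the lists and the searched motifs were chosen with earlier results of these data known. Promoter sequences are those of RefSeq (GRCm38.p6), and Sc4mol was matched as Msmo1.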

Additional observations from a re-analysis of the deposited data

How the results depend on the processing

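No day has a replicate, so that each count rests on 9 libraries. The synthesis genes that fell numbered 12, and 10 to 14 when 1 day or 1 replicate number was left out, but 3 in days 2 to 12 only. Of the regulators, transport and export genes 2 fell, and 1 to 4 with 1 day or number left out, 4 with DESeq2 and 0 in days 2 to 12. With the 27 profiles as separate samples, with or without a replicate block, 4 of them fell and 1 synthesis gene, Ggps1, rose (fitted log2 change 0.22 with the replicate block), and profiles that share a library make such p-values too small. Across days, profiles share only a number. The other 131 of 143 alternatives for the counts stayed within 1.5 times.

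Of 672 alternatives for single genes 595 kept direction and side of the threshold, 32 gained the call, 28 lost it and 17 changed sign, in Insig1, Ebp, Tm7sf2, Dhcr7, Ggps1 and Srebf2. In log2, Insig1 was at 0.0073 and 0.0077 in TPM with limma (pseudocounts 0.5 and 0.1) and at 0.0011 in days 2 to 12. In days 2 to 12 Ggps1 was at -0.0054, Srebf2 at 0.0511 and Tm7sf2 at 1.30. All values given here for days 2 to 12, with the median of all genes, are slopes scaled to 16 days, beyond the days fitted. From day 2 to day 12 itself the fitted changes were 0.0007 for Insig1, -0.0034 for Ggps1, 0.0319 for Srebf2 and 0.81 for Tm7sf2. Ebp was at -0.0849 without replicate 2 and -0.0070 for days 2 to 6 against days 14 to 18. With 1 day or number left out, Ebp ranged from -0.0849 to 0.21, Tm7sf2 from -0.65 to 0.18 and Dhcr7 from -0.27 to 0.26. The cause was not tested. The median change of all genes was 0.05 in the line, 0.12 in TPM with limma (0.15 with a pseudocount of 0.1) and 0.12 in days 2 to 12. Abcg1 and Nr1h3, at 16 to 274 counts a day, are limited by depth.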
